A study of Homo sapiens with 6 samples.

Results

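Laminins are the cross-shaped glycoproteins on which basement membranes are built. The 9 genes described here each encode 1 laminin chain: the α chains LAMA1, LAMA2, LAMA3, LAMA4 and LAMA5, the β chains LAMB1, LAMB2 and LAMB3, and the γ chain LAMC1. They were chosen by gene symbol from the 58735 genes of the count table, and all 9 passed the low-count filter that left 17215 genes to test. LAMB4 and LAMC3, which also encode laminin chains, are given where a result turns on them.

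A laminin is secreted only as a trimer of 1 α, 1 β and 1 γ chain, joined inside the cell through a coiled coil, and is named by the numbers of its chains, so that laminin-511 holds α5, β1 and γ1. The short arms of the trimer join laminins into a sheet and bind nidogen, and the globular end of the α chain is held by integrins and by dystroglycan at the cell surface. In the liver, hepatic stellate cells, which lie in the space between hepatocytes and sinusoids, are a source of laminin.

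Expression was read from 6 RNA sequencing libraries of LX-2, an immortalised human line of hepatic stellate cells labelled as wild type. By the sample labels, all 6 came from cells that carried an siRNA, delivered by lipid transfection, to NSUN2, an RNA cytosine methyltransferase. In 3 libraries nothing else was added, and in the other 3 the cells received TGF-β1, the cytokine best known for activating stellate cells, at 5 ng/ml for 24 h from 48 h after transfection. The labels give no harvest time for the cells without TGF-β1, and name the replicates biological but do not say that they were separate cultures, so p-values measure the spread between these libraries. The design text also names NAT10 for the siRNA, and the labels were followed. Cells without this siRNA were not analysed here, so the values show TGF-β1 against no TGF-β1 on a background of siRNA and say nothing of the siRNA itself.

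Totals ran from 25828504 to 30034762 counts per library. NSUN2 stood at 81.4, 82.9 and 84.4 normalised CPM (read counts scaled to library size) without TGF-β1 and at 102.7, 97.0 and 101.9 with it, a log2 fold change of 0.28 ± 0.04 (SE). It was called higher with TGF-β1 (edgeR adjusted p = 1.57e-06). Of the 14 stellate cell markers, 12 were tested, and their summed level was 2697 to 2734 CPM without and 5554 to 6201 CPM with TGF-β1; the collagen gene COL1A1 made up most of it, while LRAT had no count and DES had 6 counts in each group. The 12 did not move together: 6 were called higher, TAGLN (log2 fold change 2.32) and PDGFRB (1.75) the most, and 4 lower, namely ACTA2 (-0.74), HAND2 (-0.74), GATA4 (-0.77) and NGFR (-0.73). The defining genes ALB (1 and 0 counts, summed over the 3 libraries of a group), CDH5 (10 and 5), EPCAM (15 and 8) and PTPRC (4 and 5) of hepatocytes, endothelium, epithelium and leukocytes were near 0. Other genes of those lists were present: SERPINA1 had 24.8 and 22.1 CPM and was not called, CSF1R rose from 4.34 to 12.3 CPM, and CD14 fell from 8.49 to 3.71 CPM. In bulk RNA, fewer cells of a type and less RNA per cell cannot be told apart.

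Changes were tested with edgeR's quasi-likelihood test, with Benjamini-Hochberg adjustment over all 17215 genes and an adjusted p under 0.05 as the threshold for a call. Of all tested genes 38.9% were called, 20.2% higher and 18.7% lower with TGF-β1, and 47.4% had no overlap between the groups' normalised CPM. These shares cover genes of all levels, and lists were not compared with genes of like level. The calls were 51.8% higher ones, against 42.0% with upper-quartile scaling and 27.4% with library totals alone, where the median of all tested genes moved by -0.12 (log2). No laminin chain changed its direction or its call under either scaling.

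The chains around which the results turn are LAMC1, the member with the largest rise, and LAMA5, the most abundant α chain. LAMC1 (ENSG00000135862) lies at chr1:183023460-183145592 on the plus strand of hg38, and LAMA5 (ENSG00000130702) at chr20:62307955-62367312 on the minus strand. The 250 bases before their start sites, from RefSeq on GRCh38.p14, are printed to show the promoters of chains that moved in opposite directions. They cover chr1:183023170-183023419 (plus strand) and chr20:62367313-62367562 (minus strand), contain no annotated exon, and are written 5′ to 3′ with the SP/KLF box GGGCGG, or its complement CCGCCC, in capitals.
LAMC1: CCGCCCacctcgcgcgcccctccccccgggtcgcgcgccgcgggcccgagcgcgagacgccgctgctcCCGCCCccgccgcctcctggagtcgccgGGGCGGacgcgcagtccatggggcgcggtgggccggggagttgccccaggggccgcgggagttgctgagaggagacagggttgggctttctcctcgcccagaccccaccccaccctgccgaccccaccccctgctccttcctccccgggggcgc
LAMA5: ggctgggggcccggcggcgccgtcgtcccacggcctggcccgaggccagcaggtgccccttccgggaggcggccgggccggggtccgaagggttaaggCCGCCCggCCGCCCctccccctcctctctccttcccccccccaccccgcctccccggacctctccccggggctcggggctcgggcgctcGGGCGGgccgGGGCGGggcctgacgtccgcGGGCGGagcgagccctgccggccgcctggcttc
The LAMC1 window is 79.6% G and C and holds 3 such boxes, and the LAMA5 window is 82.8% G and C and holds 5. The box, searched on both strands, occurs in 42.6% of the 35116 RefSeq windows of this length, whose median GC content is 58%, so it is common. Neither window holds the AP-1 site TGANTCA (6.57% of windows), the SMAD palindrome GTCTAGAC (0.182%) or CAGACA (13.6%), which says only that these letters are not in these 250 bases.

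With TGF-β1, 2 of the 9 laminin chains rose, LAMB1 and LAMC1, and 6 fell, LAMA1, LAMA3, LAMA4, LAMA5, LAMB2 and LAMB3. LAMA2 was not called. The direction thus followed the class of the chain in part: 4 of 5 α chains fell and none was called higher, the 3 β chains divided 1 higher and 2 lower, and the γ chain rose. Groups did not overlap for 8 of the 9, beside 47.4% of all tested genes, and 88.9% of the chains were called, beside 38.9%. The median log2 fold change of the chains was -0.18, beside -0.01 over all tested genes. Falls of LAMA4 and LAMA5 and the rise of LAMC1 lay beyond the 5th to 95th percentile of all tested genes (-0.91 to 0.82), and the other 6 lay within it.

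**Figure D1:**
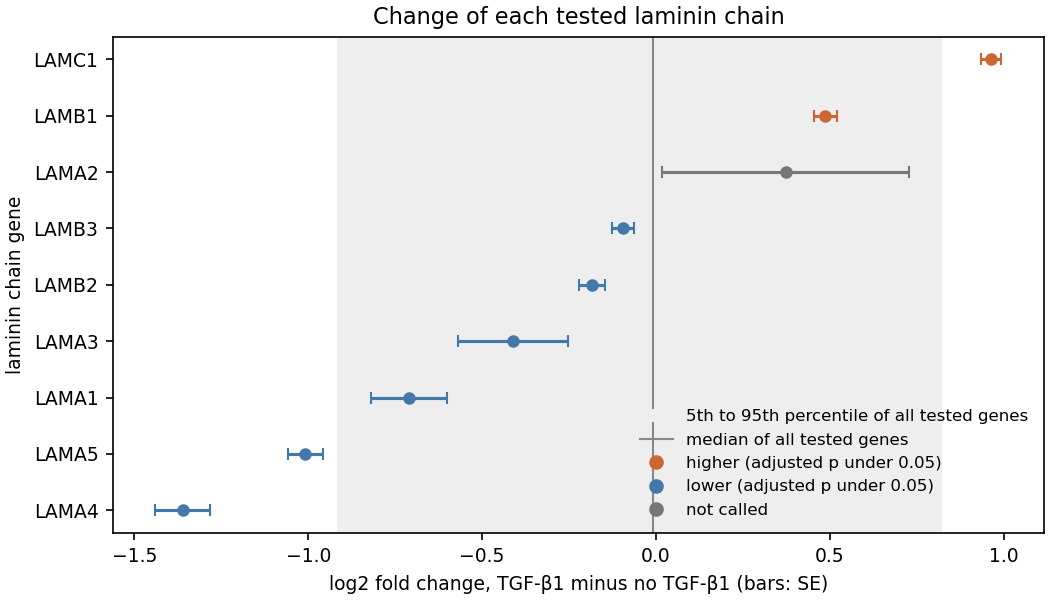
The x axis gives the log2 fold change with TGF-β1 against none and the y axis the laminin chain genes that were tested, with bars for the SE; the grey band spans the 5th to 95th percentile of all tested genes. LAMC1 and LAMB1 lie furthest to the right, and LAMA4 and LAMA5 lie furthest to the left.

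LAMC1 encodes γ1, the γ chain of most known laminins. Its level was 569, 562 and 568 CPM without TGF-β1 and 1137, 1077 and 1102 CPM with it. Every treated library stood far above every untreated one, and the spread within each group was small: 566 ± 3.55 against 1105 ± 30.4 CPM (SD, n = 3). The log2 fold change was 0.96 ± 0.03, a 1.95-fold rise (edgeR adjusted p = 1.51e-28), and it ran from 0.85 to 0.99 over 18 alternative settings, all of them called.

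LAMB1 encodes β1, the partner of γ1 in laminin-111, laminin-211, laminin-411 and laminin-511, and lies at chr7:107923799-108003255 on the minus strand. It was measured at 370.1, 359.5 and 372 CPM without TGF-β1 and at 529, 523.4 and 492 CPM with it. The groups were again apart, by 1.40-fold (log2 fold change 0.49 ± 0.03, edgeR adjusted p = 9.71e-17). Its rise was smaller than that of LAMC1, and the ratio of LAMB1 to LAMC1 within a library was lower with TGF-β1 by 0.48 on the log2 scale, with no overlap between groups. The other β chains moved little. LAMB2, which encodes the β2 chain of the kidney filter and the neuromuscular junction, fell from 218.5 ± 6.04 to 192 ± 9.41 CPM (log2 fold change -0.18 ± 0.04, edgeR adjusted p = 6.99e-05). LAMB3, which encodes the β3 chain of epithelial basement membranes, fell from 325 ± 2.57 to 304 ± 3.33 CPM (-0.10 ± 0.03, edgeR adjusted p = 0.0132). Both falls, of 1.14-fold and 1.07-fold, were called under all 18 alternatives.

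LAMA5 encodes α5, the α chain of laminin-511 and laminin-521 in many adult basement membranes. Its values were 532, 522 and 518 CPM without TGF-β1 and 288, 244 and 249.6 CPM with it. The lowest untreated library was well above the highest treated one, and the fall was 2.01-fold (log2 fold change -1.01 ± 0.05, edgeR adjusted p = 5.43e-10). Exons of other annotated genes cover 2.54% of the exonic bases of LAMA5 and 3.57% of those of LAMB1. Reads there could belong to either gene.

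LAMA4, on the minus strand at chr6:112108760-112254939, encodes α4, which is found in blood vessels and in cells of mesenchymal origin. It had 42.1, 37.1 and 40.0 CPM without TGF-β1 and 14.9, 16.1 and 15.4 CPM with it. This was the largest fall of the 9 chains, 2.57-fold (log2 fold change -1.36 ± 0.08, edgeR adjusted p = 1.24e-18). Its mean fell from 39.8 ± 2.48 to 15.5 ± 0.63 CPM (SD, n = 3). Both LAMA4 and LAMA5 were called lower under all 18 alternatives.

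The remaining α chains were scarce. LAMA1, which encodes the α1 chain of early embryonic basement membranes, had 16.3, 16.4 and 17.3 CPM without TGF-β1 and 10.7, 8.65 and 11.3 CPM with it (log2 fold change -0.71 ± 0.11, edgeR adjusted p = 7.92e-07). Exons of other genes, AP002409.1 and AP005062.1, cover 11.1% of its exonic bases, the largest such share among the 9. LAMA3, an α chain of epithelia such as skin, had 6.17, 6.24 and 6.46 CPM without and 5.34, 4.54 and 4.33 CPM with TGF-β1 (-0.41 ± 0.16, edgeR adjusted p = 0.0364). The LAMA3 call was lost without any 1 of the 3 untreated libraries or without treated library 2 or 3, at adjusted p from 0.0662 to 0.138, and with no filter on low counts or low FPKM. LAMA2, the α chain of muscle and nerve, was at 34, 38 and 34 counts without and 14, 56 and 53 counts with TGF-β1. Treated library 1 was the lowest of the 6 and the other treated libraries were the highest, so the groups overlapped (log2 fold change 0.37 ± 0.36, edgeR adjusted p = 0.450). Without treated library 1 the log2 fold change of LAMA2 was 0.76, still not called (adjusted p = 0.0633).

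Levels can be set side by side between genes only per length, for which the authors' FPKM values (fragments per kilobase of gene length, scaled to library size) were used. Without TGF-β1 the order of mean FPKM was LAMB3 (67.3), LAMC1 (65.4), LAMB1 (43.8), LAMA5 (35.6), LAMB2 (30.9), LAMA4 (3.33), LAMA1 (1.02), LAMA3 (0.416) and LAMA2 (0.111). No 2 neighbours in that order overlapped in their 3 libraries. With TGF-β1 the order was LAMC1 (127.9), LAMB3 (63.1), LAMB1 (61.5), LAMB2 (27.3), LAMA5 (17.7), LAMA4 (1.30), LAMA1 (0.626), LAMA3 (0.314) and LAMA2 (0.143), in which only LAMB3 and LAMB1 overlapped. Per length of the longest coding transcript, LAMB1 stood above LAMB3 with TGF-β1 (46.0% ± 0.88 and 36.5% ± 1.09 of β chain level). LAMC1 passed from below LAMB3 to well above it, and LAMA5 passed from above LAMB2 to below it. Among all tested genes LAMC1 stood at percentile 97.1 of FPKM without and 98.8 with TGF-β1, while LAMA5 stood at 93.5 and 84.2 and LAMA4 at 49.5 and 33.7.

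**Figure D2:**
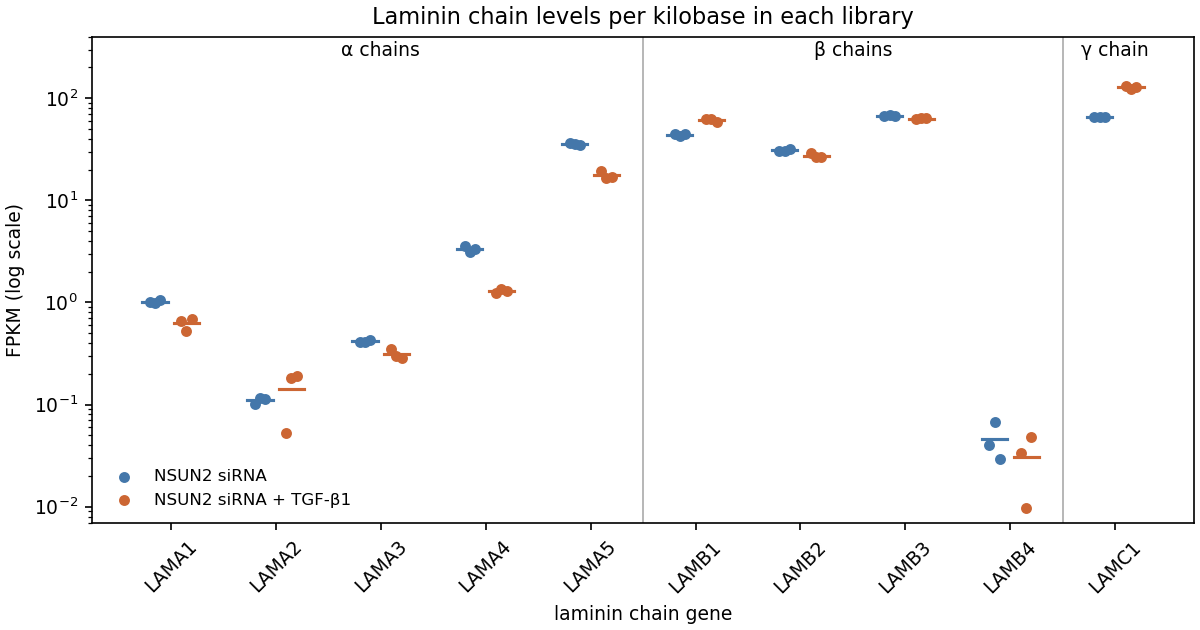
The y axis gives FPKM on a log scale and the x axis the laminin chain genes by class; each point is a library and each bar the mean of 3, blue without and orange with TGF-β1. LAMA5 is the only α chain near the β and γ chains, LAMC1 moves from 65.4 to 127.9 FPKM, and LAMC3, at 0 in every library, is not drawn.

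LAMB4 and LAMC3 were hardly detected or not at all. LAMB4 had 2 to 15 counts per library and was not tested. LAMC3 had no count in any library, which allows up to 3 counts, or 0.0960 to 0.121 CPM by library.

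Ratios of chains within a library do not depend on library scaling, and their differences between groups do not depend on gene length. Of 6 pairs compared, none overlapped between the groups, and each gave an exact two-sided permutation p of 0.1 (0.1 after adjustment over the 6), the smallest that 3 libraries against 3 can give. LAMA5 to LAMC1 stood at -0.10, -0.11 and -0.13 (log2 of the count ratio) without TGF-β1 and at -1.98, -2.14 and -2.14 with it. The difference of -1.98 is a 3.93-fold lower ratio. LAMA4 to LAMC1 was lower by 5.01-fold (log2 difference -2.33) and LAMB3 to LAMC1 by 2.08-fold (-1.06). Within the α class, LAMA4 to LAMA5 differed by -0.35, and within the β class LAMB1 to LAMB2 differed by 0.67.

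Summed over each class, the α chains went from 40.5 ± 0.69 to 20.1 ± 1.56 FPKM and the β chains from 142.0 ± 1.06 to 152.0 ± 2.49, beside 65.4 ± 0.54 and 127.9 ± 3.54 for LAMC1 (SD, n = 3). For every 100 FPKM of LAMC1 there were 62.6, 61.8 and 61.2 FPKM of α chain without TGF-β1 and 16.7, 15.3 and 15.3 with it. The β chains were at 217.2 ± 1.30 per 100 FPKM of LAMC1 without and 118.9 ± 3.06 with TGF-β1. LAMB1 and LAMB2 alone, the β chains of the listed trimers with γ1, stood at 113.5, 112.8 and 116.3 per 100 FPKM of LAMC1 without and at 69.9, 71.4 and 67.0 with TGF-β1, above LAMC1 in the first group and below it in the second. An exact permutation test gave p = 0.1 for each sum and each value per 100 FPKM of LAMC1, the smallest possible (n = 3 each). Because they were chosen after the values were seen, they are a description only.

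**Figure D3:**
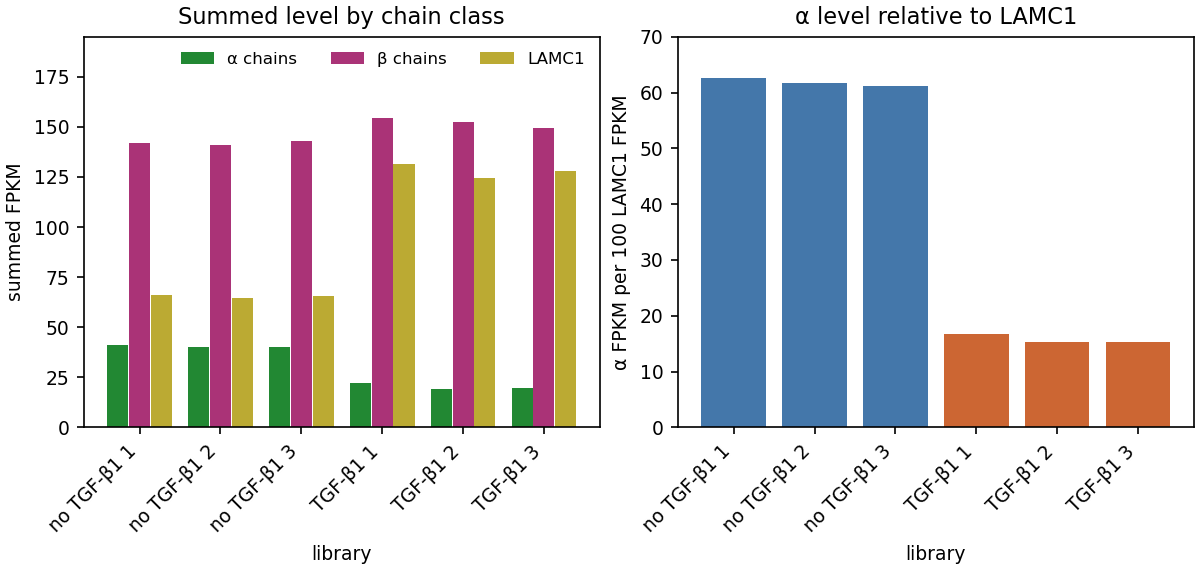
Left, summed FPKM (y axis) of the α chains, of the β chains and of LAMC1 in each library (x axis); right, α chain FPKM per 100 FPKM of LAMC1 in each library. The LAMC1 bars approach the β bars with TGF-β1, and the right-hand bars stand at 61.2 to 62.6 in the libraries without and at 15.3 to 16.7 in those with TGF-β1.

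LAMA5 made up most of the α class in both groups. It stood at 0.499 times its untreated level with TGF-β1, and the summed α chains at 0.497 times theirs. The shares of 3 scarcer chains did not overlap between groups. LAMA5 made up 87.9% ± 0.42 of α chain FPKM without TGF-β1 and 88.1% ± 1.16 with it (exact permutation p = 1, n = 3 each), with overlapping groups. LAMA4 made up 8.23% ± 0.42 and 6.49% ± 0.72, LAMA1 2.52% ± 0.11 and 3.11% ± 0.40, and LAMA3 1.03% ± 0.04 and 1.56% ± 0.07, each with an exact permutation p of 0.1 (n = 3 each). In the β class, LAMB1 went from 30.8% ± 0.42 to 40.5% ± 0.86 and LAMB3 from 47.4% ± 0.69 to 41.6% ± 1.15, and LAMB2 from 21.7% ± 0.45 to 17.9% ± 0.66. None of these 3 β shares overlapped between the groups (exact permutation p = 0.1 for each, the smallest possible, n = 3 each).

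Which trimers these levels allow was read from the scarcest chain of each of 13 known trimers, in mRNA only; protein, assembly and secretion were not measured. All 3 chains had passed the low-count filter for 10 of the 13. The others, laminin-213, laminin-423 and laminin-523, contain γ3, whose gene LAMC3 had no counts. The scarcest chain was the α chain in 9 of the 10 trimers without TGF-β1 and in 10 of 10 with it. Trimers with the same scarcest chain share its value and are not separate observations.

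Laminin-511 and laminin-521 were the trimers with the highest scarcest chain. For laminin-511 this chain was LAMA5 in both groups, at 36.2, 35.4 and 35.1 FPKM without TGF-β1 and at 19.6, 16.6 and 17.0 with it. For laminin-521 it was LAMB2 (30.9 ± 0.83 FPKM) without TGF-β1 and LAMA5 (17.7 ± 1.61) with it, the only trimer whose scarcest chain changed. Laminin-411 and laminin-421 were next, set by LAMA4 at 3.33 ± 0.22 and 1.30 ± 0.05 FPKM. Laminin-111 and laminin-121, set by LAMA1, had 1.02 ± 0.03 and 0.626 ± 0.086 FPKM.

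The trimers with the lowest values were set by LAMA3 and LAMA2. Laminin-311 and laminin-321, set by LAMA3, had 0.416 ± 0.009 and 0.314 ± 0.035 FPKM, so the abundant β and γ chains of these trimers exceeded their α chain by far. Laminin-211 and laminin-221, set by LAMA2, had 0.111 ± 0.008 and 0.143 ± 0.078 FPKM, and their groups overlapped. LAMB3, one of the most abundant chains at 67.3 and 63.1 FPKM, belongs to none of the 10 trimers. The epithelial marker list summed to 71.0 to 72.9 CPM without and 56.8 to 58.7 CPM with TGF-β1, most of it SOX9 (69.0 and 53.0 CPM). The other tested gene of that list, KRT7, rose from 2.83 to 4.30 CPM (log2 fold change 0.60 ± 0.20), and the defining genes EPCAM and CDH1 were at or near 0 counts.

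**Figure D4:**
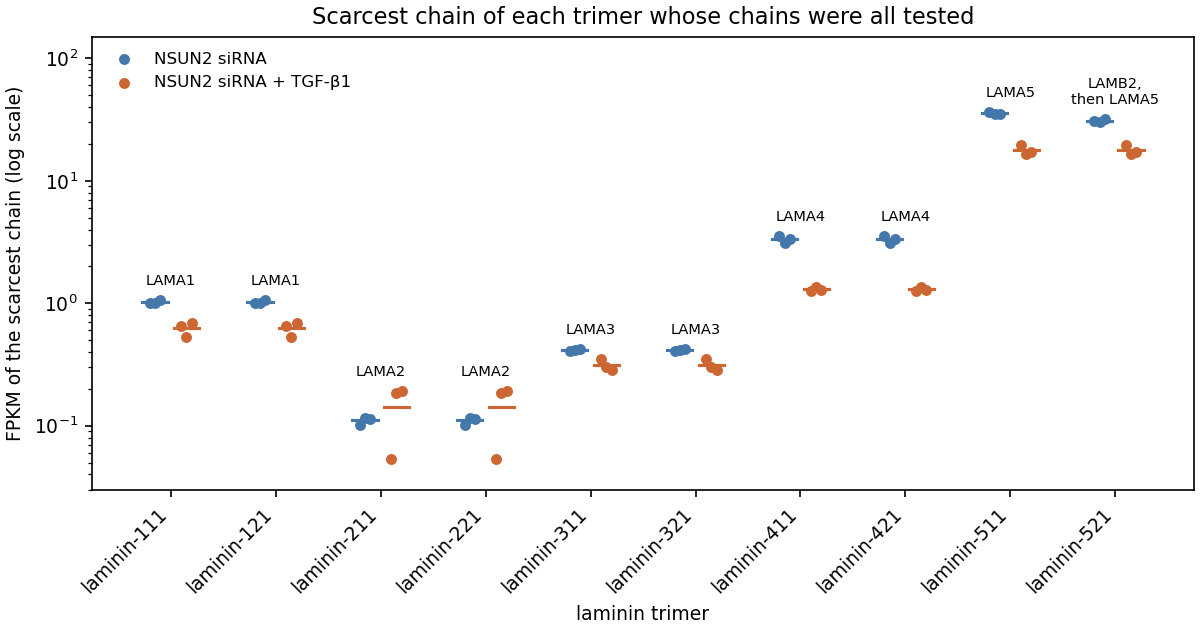
The y axis gives, on a log scale, the FPKM of the scarcest chain of each of the 10 trimers on the x axis whose chains were all tested; points are libraries, bars are means of 3, and the label names that chain. Laminin-511 and laminin-521 lie above the rest in both groups, and trimers with the same label carry the same values.

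Receptors for laminin divided in direction. Of 13 tested, 5 were called higher and 6 lower, with a median log2 fold change of -0.07. That is 84.6% called, beside 38.9% of all tested genes. ITGB1, the β subunit of most laminin-binding integrins, rose from 1073 ± 31.4 to 1669 ± 42.0 CPM (log2 fold change 0.64 ± 0.03). ITGA1 (0.60) and ITGA2 (0.37), α subunits that bind collagens and laminins, and the syndecans SDC1 (0.81) and SDC2 (0.75) were the others that rose. Among the laminin-selective α subunits, ITGA6 (-0.26 ± 0.03) and ITGA7 (-0.65 ± 0.05) fell. ITGA3, another of them and the most abundant, was at 1484 ± 28.4 and 1534 ± 61.5 CPM and was not called (0.05 ± 0.03). It was called lower with library totals alone. ITGB4, which pairs with α6 in hemidesmosomes, fell from 10.3 ± 0.70 to 4.45 ± 0.42 CPM (-1.21 ± 0.14). DAG1, which encodes dystroglycan, fell by 0.33 ± 0.03 on the log2 scale, and BCAM, a receptor for the α5 chain, fell by 0.63 ± 0.07. RPSA, the 40S ribosomal protein also described as a laminin receptor, fell by 0.07, a call lost without any 1 of the 3 untreated libraries, without treated library 1 or 2, with no filter on low counts and with FPKM values. The other gene not called was SDC4 (-0.07 ± 0.04), which was called lower with upper-quartile or total scaling and without treated library 1.

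Dystroglycan binds laminin through a sugar chain. Of 12 genes that act in building it, 1 was higher, 2 were lower and 9 were not called (median log2 fold change -0.02). The share called, 25%, was below the 38.9% of all tested genes. POMT2, of the enzyme pair that adds the first mannose, rose by 0.57 ± 0.05, while its partner POMT1 fell by 0.34 ± 0.07 on the log2 scale. B4GAT1, which adds the glucuronic acid on which the laminin-binding sugar is extended, fell by 0.62 ± 0.05. The most abundant gene of the list that was not called, POMGNT1, was at 76.4 ± 1.62 and 75.0 ± 2.01 CPM. With library totals alone POMGNT1 was called lower (log2 fold change -0.15, edgeR adjusted p = 0.0107).

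The basement membrane partners of laminin were called in both directions too, 8 higher and 5 lower of 16, with a median log2 fold change of 0.13. Calls thus covered 81.25% of them, beside 38.9% of all tested genes. COL4A1 and COL4A2, the chains of the most widespread collagen IV, rose from 278 ± 11.96 to 1171 ± 95.9 CPM (2.07 ± 0.06) and from 440.6 ± 18.8 to 1068 ± 101.0 CPM (1.28 ± 0.08). COL4A5 and COL4A6, the chains of another collagen IV network, fell by 1.34 ± 0.08 and 2.23 ± 0.09 on the log2 scale. SPARC, a collagen IV-binding protein, rose from 799 ± 14.0 to 1615 ± 33.5 CPM (1.02 ± 0.03), and COL15A1 rose from 1.20 ± 0.56 to 5.85 ± 0.78 CPM. COL7A1, the anchoring fibril collagen (0.93 ± 0.17), COL18A1 (0.75 ± 0.06) and FBLN2 (0.27 ± 0.04) rose as well. COL17A1, a hemidesmosome collagen, fell by 1.54 ± 0.12. NID1, which links laminin γ1 to collagen IV, rose by 0.18 ± 0.03, but with library totals alone it was not called. NID2 (-0.03 ± 0.07) and FBLN1 (0.09 ± 0.07) were not called. The same held for HSPG2, which encodes perlecan (-0.11 ± 0.05), although it was called lower with upper-quartile or total scaling, with at least 1 CPM in 3 libraries, and without untreated library 1 or treated library 1. AGRN, which encodes the laminin-binding proteoglycan agrin, fell by 0.25 ± 0.04. The endothelial marker list summed to 19.8 to 25.6 CPM without and 35.9 to 40.1 CPM with TGF-β1, a difference made by TEK (20.3 and 36.4 CPM, called higher). The others of its 7 genes that were tested, VWF (1.15 and 0.607 CPM) and PECAM1 (0.752 and 0.886 CPM), were not called, and CDH5 and LYVE1 were at or near 0.

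**Figure D5:**
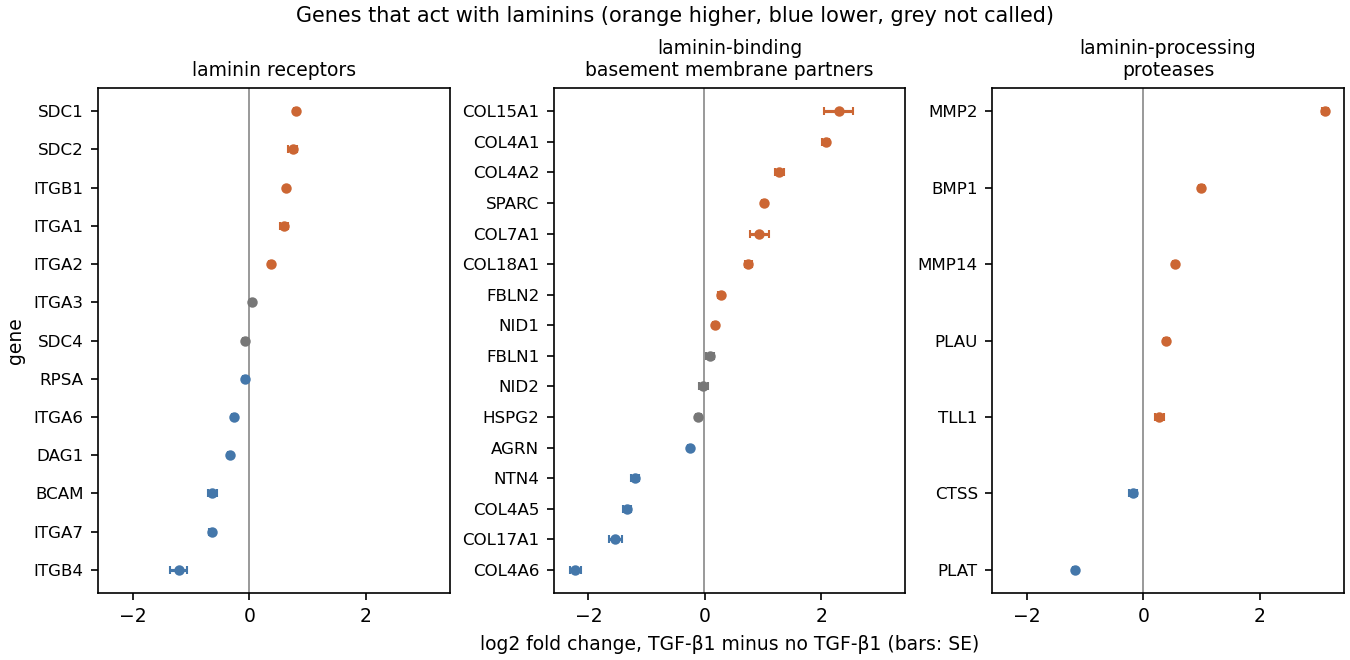
The x axes give the log2 fold change with TGF-β1 against none, with bars for the SE, and the y axes the genes of 3 groups that act with laminins; orange is called higher, blue called lower and grey not called. Each panel holds genes on both sides of 0, with MMP2 the furthest right and COL4A6 the furthest left.

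Of 8 proteases listed for laminin processing, whether they cut laminin or activate another protease, 7 were tested. Among the 7, 5 were called higher and 2 lower (100% called, beside 38.9% of all tested genes), with a median log2 fold change of 0.39. MMP2, a gelatinase that degrades basement membrane, rose from 24.3 ± 1.66 to 211.1 ± 3.96 CPM (log2 fold change 3.12 ± 0.05). BMP1, the proteinase that trims laminin and procollagen chains, rose from 140.9 ± 3.17 to 280.5 ± 12.9 CPM (0.99 ± 0.04), and its relative TLL1 rose by 0.27 ± 0.08, a call lost with library totals alone and with log2(FPKM + 1) and no filter. MMP14 (0.54 ± 0.03), the membrane enzyme that activates MMP2, and PLAU (0.39 ± 0.04), the urokinase plasminogen activator, also rose. PLAT, the tissue plasminogen activator, fell from 340.2 ± 4.33 to 150.2 ± 3.58 CPM (-1.18 ± 0.03), and CTSS fell by 0.18 ± 0.07, a call lost without any 1 of the 3 untreated libraries, without treated library 1 or 2, with DESeq2's Wald test and with FPKM values.

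Netrins share the N-terminal domains of laminin short arms. Of 6 genes 5 were tested, 1 higher and 3 lower (80% called, beside 38.9% of all tested genes), with a median log2 fold change of -0.90. NTN4, which binds laminin γ1 and opens laminin networks, fell from 54.7 ± 3.34 to 23.8 ± 1.27 CPM (-1.20 ± 0.07). NTNG1 fell from 21.8 ± 0.69 to 5.25 ± 1.56 CPM (-2.05 ± 0.14), and NTNG2 fell by 0.77 ± 0.21, a call lost with log2(FPKM + 1) and no filter. NTN1 was called higher (0.24 ± 0.10), a call lost under 12 alternatives, among them those without untreated library 1 or 2 or treated library 3.

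The genes whose pattern over the 6 libraries was most like that of LAMC1 were TENM2, GNPNAT1 and HMGCS1, by the root mean square difference of centred log2 CPM (0.0178, 0.0312 and 0.0333) among 11134 genes. For LAMA4 they were CDCP1, G0S2 and STC1 (0.0637, 0.0657 and 0.0691). With 2 groups, such likeness is mostly a matter of a like fold change: TENM2 had a log2 fold change of 0.96 and CDCP1 one of -1.27.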

How the data were processed

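The values are RNA sequencing of 6 LX-2 libraries in 2 labelled groups of 3. The deposited counts are whole-number read counts per gene, not normalised, and the deposited FPKM values were made by the authors. Within a library, FPKM equalled counts over exonic gene length over 1 library size (1.07 to 1.08 times the total count without and 0.984 to 0.987 times with TGF-β1), so FPKM holds no measurement independent of the counts. The tools named are fastp and HISAT2 2.2.1, and the build is hg38, per the submitters' processing notes. How reads were counted, with or without strand and on which annotation, was not given in the sources used here. The 58735 gene IDs all matched GENCODE release 29 in start, end and strand. Another 6 columns of sample values in each of the 2 tables belong to no sample here and were left out.

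Counts were tested with edgeR 4.0.16 in R 4.3.3 (TMM, filterByExpr at a minimum count of 10 and total of 15, robust glmQLFit, two-sided glmQLFTest, Benjamini-Hochberg adjustment, group as the only term, 4 residual degrees of freedom). The biological coefficient of variation was 5.62%. CPM values use TMM-scaled library sizes, and an SE is the absolute log2 fold change over the square root of F. Ratios, shares and class sums were tested by exact permutation of libraries. Named were the laminin chain genes above and, from each list of related genes, up to 4 called members with the largest change and a mean of at least 5 CPM, every called member where a direction had 5 or fewer, and ITGA6, ITGB1, ITGB4, DAG1 and NSUN2. ITGA3, BCAM, RPSA, SDC4, POMGNT1, COL4A2, COL7A1, COL15A1, COL18A1, SPARC, NID1, NID2, FBLN1, FBLN2 and HSPG2 were named after their values were seen. Likeness took the 3 nearest genes with at least 5 CPM. The members and lists were chosen with earlier results of these data known. Some further genes, and results that need them, are not reported here. The scripts were tested on simulated counts. Alternatives were DESeq2 1.42.0 size factors and Wald test, upper-quartile or total scaling, no filter or at least 1 CPM in 3 libraries, a non-robust fit, limma-voom and limma 3.58.1 on log2 FPKM (pseudocount 1 or 0.1, mean of at least 0.5 FPKM or no filter), a replicate block, each library left out in turn, 0.5 added to counts in ratios, and the length of the longest coding transcript.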

Additional observations from a re-analysis of the deposited data

How the results depend on the processing

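LAMA4, LAMA5, LAMB1, LAMB2, LAMB3 and LAMC1 kept their call and direction in all 18 alternatives. LAMA1 was lost with log2(FPKM + 1) and no filter (adjusted p = 0.0986), and LAMA3 was called in 9 of 16. Over all genes, 6697 calls became 4453 with log2(FPKM + 1) and no filter. Of the dystroglycan genes, 5 were lower with library totals, and 2 were higher with either filtered FPKM setting. Of the proteases, 1 in place of 2 was lower with DESeq2's Wald test and the 3 FPKM settings, and 1 to 2 with a library left out. Of the netrins, 0 were higher with upper-quartile or total scaling, no filter, DESeq2's Wald test, the fit that was not robust, limma-voom and the 3 FPKM settings, and 0 to 1 with a library left out. ITGA3 was -0.071 and called lower (adjusted p = 0.0432) with library totals. With the longest coding transcript as length, LAMA5 was 84.3% and 85.0% of α chains (without and with TGF-β1), LAMB3 42.5% and 36.5% and LAMB1 35.8% and 46.0% of β chains, so that LAMB1 passed LAMB3 with TGF-β1; the scarcest chain of laminin-511 stood at 44.5 and 22.2. By the same length, LAMA4 was 11.2% and 8.85% of α chains. The scarcest chain of laminin-411 and laminin-421 then stood at 5.89 and 2.30, and that of laminin-111 and laminin-121 at 1.68 and 1.03. Apart from the changes that lie in the construction of a setting (fewer samples, another length), the cause was not tested.

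Libraries with the same replicate number did not deviate together from their group means (r = -0.005, 0.011 and -0.009 over all tested genes). Libraries with different numbers gave r from -0.022 to 0.026. This was no sign of pairing, but with 3 libraries a group it cannot show that the cultures were unpaired. With a replicate block 8 laminin chains were called, 2 higher and 6 lower, and 3431 genes higher and 3182 lower in all. Counting limits LAMA2, LAMB4 and LAMC3, and 3 libraries a group cannot give an exact p under 0.1.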

Other observations

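LAMC1-AS1, an antisense gene inside an intron of LAMC1, had 61 counts without and 157 with TGF-β1 over 3 libraries each (log2 fold change 1.54 ± 0.34, edgeR adjusted p = 2.34e-04), in the same direction as LAMC1. If strand was not used in counting, its reads and unspliced reads of LAMC1 cannot be told apart.

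LAMB1 lies 20.3 kb from LAMB4 on chromosome 7. DLD, a dehydrogenase gene whose end overlaps LAMB1, had a log2 fold change of 0.00 ± 0.04 and was not called (edgeR adjusted p = 0.953), beside 0.49 for LAMB1. Also tested within 250 kb, CBLL1 was called higher (0.17 ± 0.06, edgeR adjusted p = 0.0184). AC005046.1 (0.64 ± 0.36) and AC002467.1 (0.03 ± 0.33) were not called. LAMB4 stayed at 2 to 15 counts per library.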
